A study of Mus musculus with 108 samples.

Results

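The expression of 7 genes of cholesterol metabolism was examined in the brains of WT and Cul3+/- mice. Hmgcs1, Fdft1, Sqle, Lss, Cyp51 and Dhcr7 code for enzymes of cholesterol synthesis, and Cyp46a1 codes for the enzyme that starts the removal of cholesterol from neurons. The genes were chosen with earlier results of these data known. They are the rows of the count table whose Ensembl identifiers carry these symbols, 7 of the 53465 genes in the table. None of the 7 is a gene of cholesterol uptake, so uptake is described here only through a list of other genes of the pathway. All 7 passed the filter on low counts in every comparison.

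Bulk RNA-seq was performed at E17.5 (embryonic), P7 (early postnatal) and in adults, which the labels place at day 35. The cortex (CX), the hippocampus (HIP) and the cerebellum (CB) were taken from WT and Cul3+/- animals. The mice were on the strain background given as C56Bl/6N in the labels. The mutants carry, on 1 copy of Cul3, a scaffold of E3 ubiquitin ligases, a germline insertion of 1 base in exon 6 made by CRISPR/Cas9 that shifts the reading frame, so the change is present in all cells and the result rests on 1 mutant line. The WT mice carry no engineered allele. After 2 adult mice with conflicting genotypes were left out, 34 mice remained, with 6 mice per genotype at E17.5 and at P7 and 5 per genotype in adults. Each mouse gave all 3 regions. Totals ran from 15126114 to 44411282 estimated counts per library, with a median of 32614828, and the lowest count of any of the 7 genes in a library was 116, for Cyp46a1. Cul3 itself separated the genotypes in all 9 combinations of period and region, with the log2 fold change closest to 0 in adult CB (-0.74) and farthest from it in adult HIP (-0.99). Marker genes of cortex and hippocampus and of cerebellum were highest in the regions the labels name.

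Cholesterol does not cross the blood-brain barrier in any quantity, so the brain makes its own. Synthesis runs from acetyl-CoA through mevalonate and farnesyl units to squalene, which is then oxidised, closed into the ring system of sterols and trimmed to cholesterol, and the genes of the pathway share the transcription factor SREBP2. Most cholesterol of the mature brain lies in myelin made by oligodendrocytes, and the brain sheds the excess mainly as 24-hydroxycholesterol, which is made by Cyp46a1 in neurons.

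The promoters are shown first because genes of synthesis share a known regulator. The part of the promoter letters in the levels of the genes was not tested. RefSeq held promoters, from 250 bases before to 50 bases after the start, for 5 of the 7 genes, and Sqle and Fdft1 had no entry. The windows, in build GRCm38.p6 and written in the direction of the gene, were chr13:119690101-119690400 on the plus strand for Hmgcs1, chr10:76531355-76531654 on the plus strand for Lss, chr5:4104648-4104947 on the minus strand for Cyp51, chr7:143829964-143830263 on the plus strand for the most downstream of 3 entries of Dhcr7, and chr12:108334066-108334365 on the plus strand for Cyp46a1. Capitals mark the letters TCACNCCAC (the core of a sterol regulatory element), CCAAT (NF-Y) and GGGCGG (Sp1), each searched on both strands, and no match overlapped another.
Hmgcs1: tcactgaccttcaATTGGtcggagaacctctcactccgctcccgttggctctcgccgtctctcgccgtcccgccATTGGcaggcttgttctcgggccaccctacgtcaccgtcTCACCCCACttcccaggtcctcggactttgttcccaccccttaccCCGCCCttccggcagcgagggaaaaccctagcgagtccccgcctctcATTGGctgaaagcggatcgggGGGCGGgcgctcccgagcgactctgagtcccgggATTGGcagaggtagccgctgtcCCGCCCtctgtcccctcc
Lss: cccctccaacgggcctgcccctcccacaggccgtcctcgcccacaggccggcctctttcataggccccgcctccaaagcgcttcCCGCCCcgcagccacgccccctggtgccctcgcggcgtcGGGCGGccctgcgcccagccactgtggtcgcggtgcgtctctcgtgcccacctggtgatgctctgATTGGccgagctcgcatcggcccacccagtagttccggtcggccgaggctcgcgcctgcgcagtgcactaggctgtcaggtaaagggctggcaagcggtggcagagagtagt
Cyp51: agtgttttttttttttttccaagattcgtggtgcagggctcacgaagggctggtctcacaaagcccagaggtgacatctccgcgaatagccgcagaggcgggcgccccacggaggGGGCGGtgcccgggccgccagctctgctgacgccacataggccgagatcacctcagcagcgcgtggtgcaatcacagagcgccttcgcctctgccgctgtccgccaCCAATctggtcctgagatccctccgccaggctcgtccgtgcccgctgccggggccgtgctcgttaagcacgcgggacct
Dhcr7: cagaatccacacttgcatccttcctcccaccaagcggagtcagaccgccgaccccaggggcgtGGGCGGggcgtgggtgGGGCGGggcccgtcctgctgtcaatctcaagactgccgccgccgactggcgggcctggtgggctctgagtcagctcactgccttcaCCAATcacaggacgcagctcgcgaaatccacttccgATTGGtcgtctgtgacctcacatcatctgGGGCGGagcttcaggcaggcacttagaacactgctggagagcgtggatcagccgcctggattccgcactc
Cyp46a1: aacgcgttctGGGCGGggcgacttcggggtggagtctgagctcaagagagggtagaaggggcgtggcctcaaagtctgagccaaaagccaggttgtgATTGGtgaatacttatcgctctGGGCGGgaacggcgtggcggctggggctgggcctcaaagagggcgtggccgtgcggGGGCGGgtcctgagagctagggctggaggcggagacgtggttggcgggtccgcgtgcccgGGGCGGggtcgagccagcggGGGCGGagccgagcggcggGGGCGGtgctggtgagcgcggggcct
Hmgcs1 was the only gene of the 5 whose window held the sterol regulatory element core, as TCACCCCAC from base -137 to -129 counted from the start, and its window also held 4 CCAAT and 3 GGGCGG matches. Of all 32851 promoters of this length, 1.24% held the sterol regulatory element core, 37.4% held CCAAT and 35.7% held GGGCGG. The Lss window held 1 CCAAT and 2 GGGCGG matches, that of Cyp51 held 1 of each, and the printed window of Dhcr7 held 2 and 3. Of the other Dhcr7 entries, 1 held a single GGGCGG and 1 held no match. The Cyp46a1 window held 6 GGGCGG and 1 CCAAT. A match describes the letters in the window and not the binding of a factor. Only the exact letters given above were searched, so a window without a match may still hold other forms of these sites.

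The levels of the 7 genes separated synthesis from turnover. Counts are given as CPM, the counts scaled to library size, after TMM normalization of all libraries together. In WT mice the 6 synthesis genes had their lowest means in adults, while Cyp46a1 had its highest means there, in each of the 3 regions. Over the 18 groups of period, region and genotype, the highest mean of Cyp46a1 was 17.6 times its lowest, against 2.70 to 5.55 times for the synthesis genes.

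**Figure D1:**
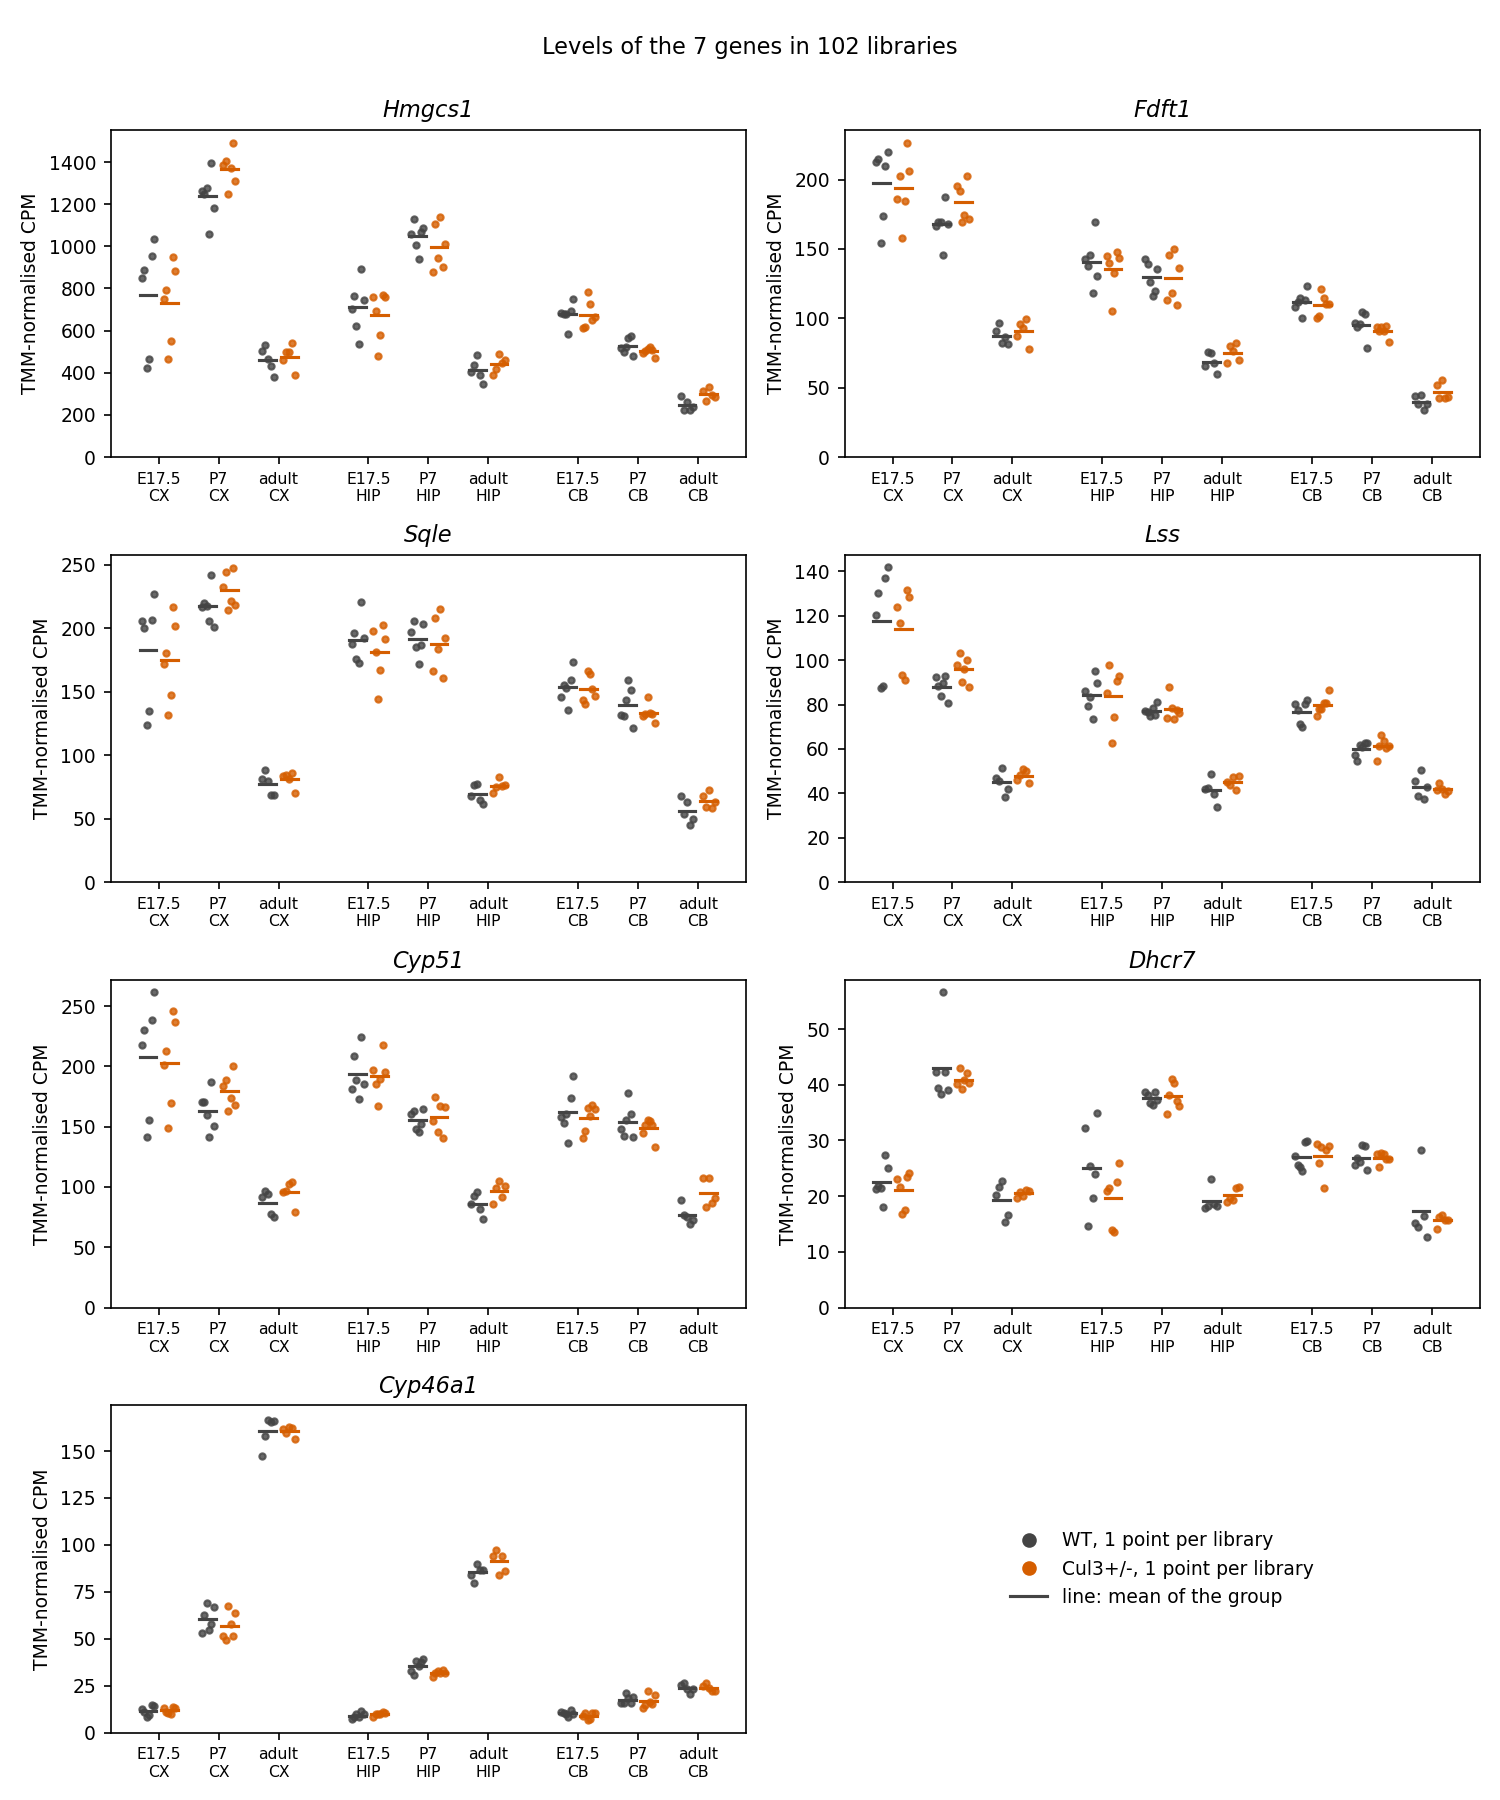
TMM-normalised CPM (vertical axes, from 0, with a scale of their own for each gene) of the 7 genes in all libraries used, with 1 point per library, WT in grey and Cul3+/- in orange, by period and region, and lines at the group means. In WT mice the means of the 6 synthesis genes are lowest in adults in each region. In Cul3+/- HIP the mean of Dhcr7 is 19.7 CPM in embryos and 20.2 in adults. Cyp46a1 is highest in adult CX at about 161 CPM in both genotypes, and the points of both genotypes overlap in every group.

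Per kilobase of exon, the scale on which genes can be compared with each other, Hmgcs1 had the highest level in all 9 WT groups, from 53.7 CPM per kb in adult CB to 269 in P7 CX. Cyp46a1 was the lowest of the 7 genes in all 3 embryonic regions, at 2.79 to 3.56 CPM per kb. In adults it was second only to Hmgcs1 in CX, at 48.9 ± 2.5 (SD, n = 5) against 101 ± 13.1 CPM per kb, and in HIP, at 25.97 ± 1.13 against 89.6 ± 11.2. In adult CB it stood behind 4 of the synthesis genes, at 7.27 ± 0.65 CPM per kb. Dhcr7 was the lowest gene in every P7 and adult WT group, at 2.99 to 7.39 CPM per kb. These last places depend on the length used, which is that of all exons of a gene joined. Per kb of the longest transcript, Dhcr7 was the lowest in none of these 6 groups (P7 CX 15.3 against 12.6 for Lss), and Cyp46a1 in adult CB stood behind 3 genes in place of 4 (11.3 against 10.8 for Fdft1).

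Hmgcs1 (ENSMUSG00000093930, chr13:119690379-119708260 in GRCm38, as are the positions of the other genes) codes for the cytosolic HMG-CoA synthase, an early step of synthesis. In WT CX it ran from 423 to 1036 CPM with a median of 870 in embryos, and from 1060 to 1396 with a median of 1256 at P7. The adult CX libraries lay at 380, 431, 465, 503 and 533 CPM. No P7 library of CX overlapped with either other period. In HIP the ranges were 536 to 893 CPM (median 723) in embryos and 942 to 1131 (median 1064) at P7, and the adult libraries lay at 347, 388, 402, 437 and 483. HIP thus followed CX, again without overlap between neighbouring periods. In CB the gene fell at each step, from 582 to 751 CPM (median 681) in embryos to 481 to 574 (median 519) at P7 and to 224, 225, 237, 260 and 288 in adults, without overlap. Ordered by mean, the 9 groups ran from P7 CX, P7 HIP, E17.5 CX, E17.5 HIP and E17.5 CB to P7 CB, adult CX, adult HIP and adult CB. Neighbours in that order overlapped except at the steps from E17.5 CB to P7 CB and from adult HIP to adult CB.

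By edgeR's quasi-likelihood test with Benjamini-Hochberg adjustment, Hmgcs1 rose from E17.5 to P7 in CX by 0.64 ± 0.18 on the log2 scale (SE, n = 6 against 6, adjusted p = 0.00406) and in HIP by 0.55 ± 0.10 (adjusted p = 0.000103). In CB it fell by 0.38 ± 0.07 over the same interval (adjusted p = 0.000126). From P7 to adult it fell by 1.39 ± 0.20 in CX, 1.33 ± 0.11 in HIP and 1.08 ± 0.08 in CB (n = 6 against 5). The steps of a region share the P7 libraries, so they are not independent. Without the embryos whose mouse names begin with S3, which had low levels of these genes in CX, the embryonic to P7 change in CX was 0.35 (adjusted p = 0.00338).

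Fdft1 (ENSMUSG00000021273, chr14:63145150-63179578) codes for squalene synthase, the first step that leads only to sterols. Its level in WT CX was 154 to 220 CPM (median 211) in embryos, 146 to 187 (median 169) at P7 and 81.4, 82.1, 86.5, 90.9 and 96.5 in adults. It was highest in embryonic CX and lowest in adult CB, where the libraries lay at 34.1, 38.2, 38.3, 44.1 and 44.7 CPM. From P7 to adult it fell by 0.90 ± 0.09 on the log2 scale in CX, 0.89 ± 0.09 in HIP and 1.24 ± 0.08 in CB, without overlap. The embryonic to P7 step was called in CX (-0.28 ± 0.09) and CB (-0.25 ± 0.07), with overlapping ranges, and not in HIP (-0.13 ± 0.08, adjusted p = 0.160). The fall in CX over this step was not called in Cul3+/- mice, other animals throughout (-0.13, adjusted p = 0.149). The 3' end of Fdft1 overlaps Ctsb on the opposite strand over 774 bases, and the strand setting of the counting was not given in the sources used here.

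Sqle (ENSMUSG00000022351, chr15:59315077-59331192) codes for squalene epoxidase, a rate-limiting step after squalene. Its means were 183 ± 42.6 CPM in embryos and 217 ± 14.1 at P7 in CX (SD, n = 6), 191 ± 17.1 and 192 ± 12.8 in HIP, and 154 ± 12.6 and 140 ± 14.1 in CB. None of these steps was called, with log2 fold changes of 0.20 ± 0.12, -0.01 ± 0.07 and -0.15 ± 0.09 (adjusted p = 0.154, 0.918 and 0.146). In adults the libraries lay at 68.8, 68.99, 79.3, 81.5 and 88.2 CPM in CX, at 62.0, 64.5, 67.9, 76.3 and 77.7 in HIP, and at 44.9, 49.6, 53.9, 62.9 and 68.3 in CB. Every adult library was below every P7 library of its region. The fall from P7 to adult was 1.46 ± 0.14 on the log2 scale in CX, 1.44 ± 0.08 in HIP and 1.31 ± 0.10 in CB, a change of 2.48 to 2.74 fold and the largest value among the 6 synthesis genes in each region.

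Lss (ENSMUSG00000033105, chr10:76531588-76557138) codes for lanosterol synthase, which closes the sterol rings, and Cyp51 (ENSMUSG00000001467, chr5:4081145-4104746) codes for the demethylase that acts on lanosterol. Both stepped down at each interval in CX. Lss lay at 118 ± 24.0 CPM in embryos, 87.9 ± 4.86 at P7 and 44.9 ± 5.08 in adults, and Cyp51 at 208 ± 48.3, 163 ± 16.3 and 87.0 ± 9.74. The embryonic to P7 fall was called for Lss in all 3 regions (CX -0.47 ± 0.11, HIP -0.14 ± 0.07, CB -0.37 ± 0.07) and for Cyp51 in CX (-0.39 ± 0.13) and HIP (-0.33 ± 0.07) but not in CB (-0.09 ± 0.08, adjusted p = 0.319). The HIP value of Lss had an adjusted p of 0.0828, close to the threshold of 0.1, and lost its call in 11 of 26 alternatives. In Cul3+/- mice the CX falls were smaller, at -0.30 for Lss and -0.23 for Cyp51 (adjusted p = 0.00273 and 0.0566). From P7 to adult, Lss fell by 0.93 ± 0.12 in CX, 0.88 ± 0.08 in HIP and 0.46 ± 0.07 in CB, and Cyp51 by 0.87 ± 0.14, 0.83 ± 0.08 and 0.99 ± 0.08, without overlap of the libraries in any region. The CB value of Lss was the smallest called change among the synthesis genes over this step. In Cul3+/- mice the fall of Cyp51 in CB was 0.63 (adjusted p = 2.33e-07). The interaction of genotype with period was not called for Cyp51 in CB (adjusted p = 0.307).

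Dhcr7 (ENSMUSG00000058454, chr7:143823145-143848410) codes for 7-dehydrocholesterol reductase, the last enzyme of one branch of the pathway. Unlike Lss and Cyp51, it was higher at P7 than in embryos in CX and HIP. Of the 11 listed genes after squalene, 6 were called higher and 3 lower over this step in CX, and 7 and 2 in HIP. Of all genes, 41.3% and 40.6% were called higher and lower in CX, and 38.9% and 39.1% in HIP. The WT ranges of Dhcr7 in CX were 18.1 to 27.3 CPM (median 21.6) and 38.3 to 56.6 (median 40.8). In HIP they were 14.7 to 34.96 (median 24.6) and 36.3 to 38.7 (median 37.7). Neither pair of ranges overlapped. The rise was 0.89 ± 0.12 on the log2 scale in CX (adjusted p = 1.63e-06) and 0.57 ± 0.15 in HIP (adjusted p = 0.00219; 0.91 in Cul3+/- mice), and in CB the change was -0.02 ± 0.14 (adjusted p = 0.902). In adults the libraries lay at 15.3, 16.6, 20.1, 21.6 and 22.8 CPM in CX, at 17.8, 18.2, 18.3, 18.7 and 23.04 in HIP, and at 12.6, 14.5, 15.3, 16.4 and 28.3 in CB. From P7 to adult the gene fell by 1.12 ± 0.13 in CX, 0.95 ± 0.16 in HIP and 0.62 ± 0.15 in CB. The adult CB range overlapped that of P7 through the library at 28.3 CPM alone, and without it the CB change was -0.85 (adjusted p = 1.43e-08).

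Cyp46a1 (ENSMUSG00000021259, chr12:108334381-108362234) codes for cholesterol 24-hydroxylase. In embryos its level was low in all regions, with WT ranges of 8.32 to 14.6 CPM (median 11.8) in CX, 7.10 to 11.4 (median 9.08) in HIP and 8.52 to 12.04 (median 10.5) in CB. At P7 the ranges had moved up to 53.0 to 68.97 CPM (median 60.2) in CX, 30.8 to 39.4 (median 36.5) in HIP and 15.8 to 21.3 (median 17.2) in CB, with no overlap with the embryos. In adults the libraries lay at 147, 158, 165, 166 and 166 CPM in CX, at 79.8, 84.1, 86.4, 86.5 and 90.0 in HIP, and at 20.8, 23.4, 23.5, 25.3 and 26.5 in CB. CX was thus far above HIP and HIP far above CB in the mature brain. The rise from E17.5 to P7 was 2.33 ± 0.12 on the log2 scale in CX, 1.94 ± 0.09 in HIP and 0.75 ± 0.09 in CB, and that from P7 to adult was 1.44 ± 0.12, 1.28 ± 0.09 and 0.45 ± 0.09. Adult CB and P7 CB overlapped, and among the 3 embryonic groups neighbours also overlapped, while all other neighbours in the order of the 9 groups were separate.

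Together, 7 of 7 genes were called between P7 and adult in each region, 6 of them lower and Cyp46a1 higher. This is read against all genes tested, of which 34.5% were called lower and 33.2% higher in CX, 31.5% and 31.3% in HIP, and 39.4% and 40.0% in CB. The 7 genes were chosen with earlier results of these data known, so the counts are a description. Under a rule that also asked for a fall of at least 1 on the log2 scale, 3 of the 7 were called in CX (Hmgcs1, Sqle and Dhcr7), 2 in HIP (Hmgcs1 and Sqle) and 3 in CB (Hmgcs1, Fdft1 and Sqle), against 11.6%, 10.4% and 17.7% of all genes. From E17.5 to P7 the genes did not move as one. In CX, 3 of 7 were called higher and 3 lower (41.3% and 40.6% of all genes), in HIP 3 higher and 2 lower (38.9% and 39.1%), and in CB 1 higher and 3 lower (35.7% and 35.5%), and these counts of the 7 did not stand apart from the shares of all genes.

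**Figure D2:**
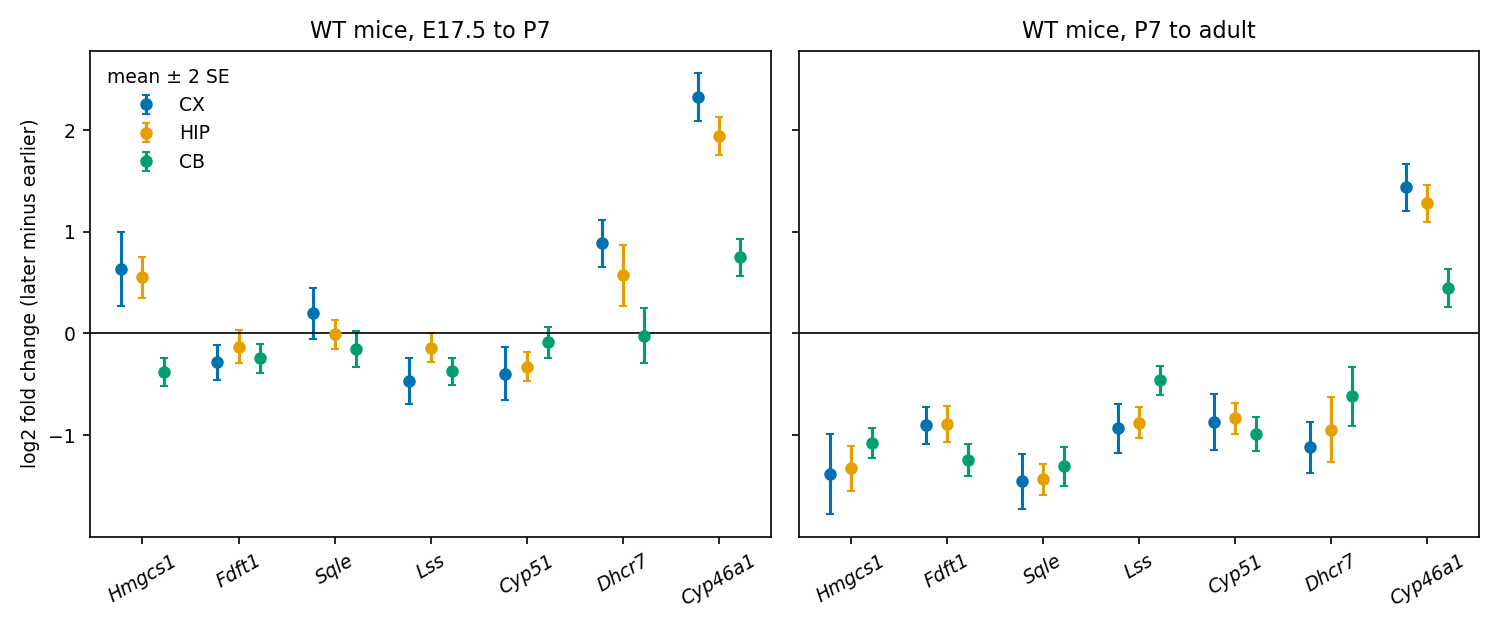
Log2 fold changes between periods in WT mice (vertical axis, later minus earlier) for the 7 genes (horizontal axis), with bars of ± 2 SE and colours for CX, HIP and CB. The step from P7 to adult shows 6 genes below 0 and Cyp46a1 above 0 in all regions, while in the step before it Hmgcs1 lies at 0.64 in CX and at -0.38 in CB.

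Other cells of the tissue changed over the same interval. Of 10 oligodendrocyte markers, such as Mbp, all 10 were called higher from P7 to adult in each region, with median log2 fold changes of 6.39 in CX, 6.36 in HIP and 2.41 in CB, and their summed level in WT CX moved from 154 to 203 CPM at P7 to 4134 to 5398 CPM in adults. Of 10 neuron markers, 5, 6 and 6 were called higher and 4, 2 and 2 lower in CX, HIP and CB. The shares of all genes were 33.2%, 31.3% and 40% higher and 34.5%, 31.5% and 39.4% lower. The score of the neuron markers in WT mice, a mean of log2 CPM, ran from 7.03 to 7.70 in embryos, from 8.95 to 9.23 at P7 and from 9.08 to 9.27 in adults in CX. In CB it ran from 7.45 to 7.68, from 7.47 to 7.82 and from 8.48 to 8.80. The embryonic and P7 ranges in CB overlapped, with 5 of the 10 markers called higher and 4 lower over that step. The part of these shifts in the levels of the 7 genes was not tested. In bulk tissue, fewer cells of a type and less RNA per cell cannot be told apart.

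Beyond the 7 genes, lists of 46 genes of the pathway were counted, which include the 7. The lists too were chosen with earlier results of these data known. Of the 9 genes of synthesis before squalene, 9 were called lower from P7 to adult in each region, with median log2 fold changes of -1.39 in CX, -1.23 in HIP and -1.08 in CB, beside -0.03, -0.01 and 0.01 over all genes. Mvd, which decarboxylates mevalonate diphosphate, had the largest called fall of a list gene outside the 7 in CX, from 54.5 ± 7.35 to 18.6 ± 2.58 CPM (-1.52 ± 0.19). Of the 11 genes after squalene, 7, 8 and 7 were called lower and 2 higher in each of the regions, with medians of -0.87, -0.83 and -0.51. Of all genes, 34.5%, 31.5% and 39.4% were called lower and 33.2%, 31.3% and 40% higher over this step.

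The genes that control synthesis were mixed. Of 6 such genes, 3 were called lower and 2 higher in each region, beside 31.5% to 39.4% and 31.3% to 40% of all genes. Srebf2, which codes for SREBP2, fell by 0.26 ± 0.12 in CX, 0.33 ± 0.11 in HIP and 0.46 ± 0.17 in CB. The CX value was not called without P7 WT replicate 4 (-0.12, adjusted p = 0.182) or in Cul3+/- mice (-0.04, adjusted p = 0.495), and the CB value was -0.75 without adult WT replicate 3. Insig1, which holds the SREBP complex in the endoplasmic reticulum, was called in CB only (-0.36 ± 0.10, adjusted p = 0.00223), and not there in Cul3+/- mice (-0.05, adjusted p = 0.619). Its values in CX and HIP were -0.01 ± 0.13 and -0.09 ± 0.09, and the difference between regions was not tested.

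Uptake genes leaned lower from P7 to adult in CX and HIP, but not in CB. Of 9 genes, 5 were called lower and 1 higher in CX, 7 and 1 in HIP, and 3 and 5 in CB. Of all genes, 34.5% were called lower and 33.2% higher in CX, 31.5% and 31.3% in HIP, and 39.4% and 40% in CB.

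Of the 11 genes of turnover, esters and efflux, of which 10 were tested in CB, 8, 7 and 6 were called higher and 3, 1 and 2 lower from P7 to adult in CX, HIP and CB. The shares of all genes were 33.2%, 31.3% and 40% higher and 34.5%, 31.5% and 39.4% lower. Cyp27a1, a sterol hydroxylase, had the largest called rise of a list gene outside the 7 in each region, at 2.08 ± 0.30 in CX, 2.10 ± 0.31 in HIP and 3.15 ± 0.19 in CB, where it went from 1.42 ± 0.40 to 12.4 ± 0.65 CPM. Its P7 levels were low in CX and HIP, at 0.66 ± 0.25 and 0.62 ± 0.22 CPM. The P7 libraries held 15 to 39 counts of it in CX and 10 to 33 in HIP, so these 2 folds rest on few counts. Apoe, the main apolipoprotein of the brain and mostly a product of astrocytes, rose by 0.67 ± 0.15 in CX and 0.33 ± 0.14 in HIP and was at 0.07 ± 0.23 in CB (adjusted p = 0.799).

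**Figure D3:**
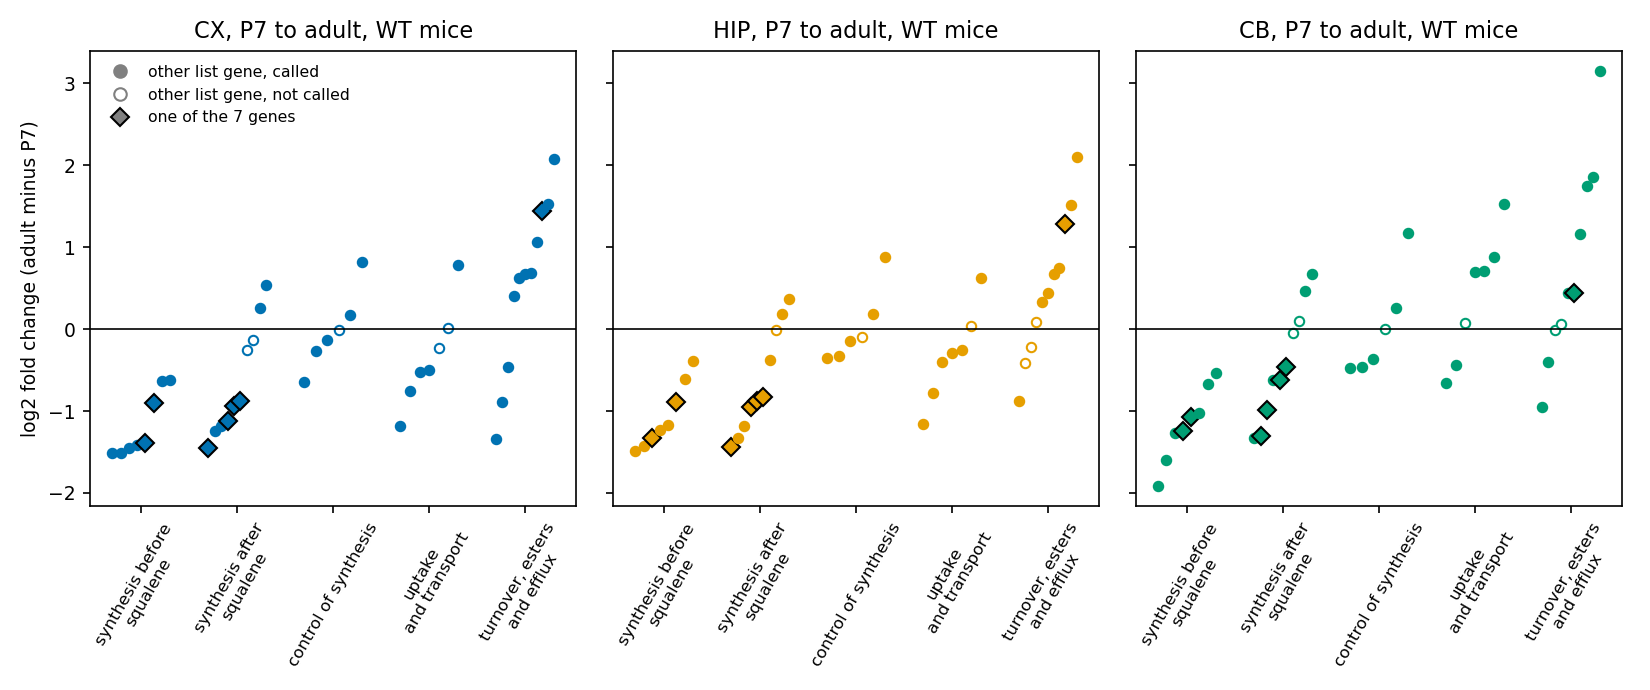
Log2 fold changes from P7 to adult in WT mice (vertical axis) of genes of 5 pathway lists (horizontal axis) in CX, HIP and CB, with diamonds for the 7 genes, filled symbols for genes called and open symbols for those not called. The genes of synthesis before squalene that are drawn lie below 0 in each region, and most genes of turnover lie above 0.

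From E17.5 to P7, of the 46 genes, 25 were called higher and 12 lower in CX, 27 and 11 in HIP, and 18 and 16 of 45 tested in CB. Of all genes tested, 41.3% were called higher and 40.6% lower in CX, 38.9% and 39.1% in HIP, and 35.7% and 35.5% in CB. The CB counts of the 46 genes were near these shares. The genes of turnover, esters and efflux were mostly higher at P7, with 8 called higher and 2 lower in CX, 9 and 1 in HIP, and 8 and 1 in CB, and median log2 fold changes of 0.98, 1.09 and 0.58. Apoe had the largest called rise outside the 7 in CX (3.93 ± 0.17, from 35.3 ± 9.30 to 555 ± 63.1 CPM) and in CB (2.60 ± 0.23), and rose by 3.14 ± 0.14 in HIP. Markers of astrocytes also rose, with 9, 9 and 8 of 10 called higher in CX, HIP and CB (medians 3.43, 1.76 and 1.11). So did 8 of 8 markers of microglia in each region (medians 1.94, 1.39 and 1.83). Of 10 oligodendrocyte markers, 8, 9 and 10 were called higher, and 1 was called lower in CX. Of 10 neuron markers, 8, 9 and 5 were called higher, and 4 were called lower in CB. The part of these cells in the rise of Apoe was not tested. In HIP the largest fitted rise was that of Ch25h, a 25-hydroxylase of cholesterol, but its embryonic libraries held only 0 to 2 counts against 12 to 19 at P7, so no fold is given. The largest called falls outside the 7 were those of Npc2, a lysosomal carrier of cholesterol, in CX (-0.95 ± 0.09) and of Lrp8, a receptor of Apoe and reelin, in HIP (-1.25 ± 0.09). Srebf2 was at 0.05 ± 0.11 in CX (adjusted p = 0.686) and fell in HIP (-0.49 ± 0.10) and in CB (-0.30 ± 0.16, adjusted p = 0.0985), where the call was lost without the S3 embryos (-0.28, adjusted p = 0.207). In Cul3+/- mice the Srebf2 change was -0.26 in HIP and -0.50 in CB (adjusted p = 0.00294 and 2.43e-05). Insig1 rose in CB (0.60 ± 0.09) and was at 0.10 ± 0.12 in CX and 0.15 ± 0.09 in HIP (adjusted p = 0.464 and 0.123). The HIP value of Insig1 was called without the S3 embryos (0.19, adjusted p = 0.0905).

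The regions of the same WT mice were compared next, with the mouse as a block. At E17.5 the forebrain regions differed from each other in 3 of the 7 genes, all lower in HIP than in CX: Fdft1 (-0.46 ± 0.08 on the log2 scale), Lss (-0.43 ± 0.08) and Cyp46a1 (-0.31 ± 0.12). Between CX and CB, 5 were called, with Fdft1 (-0.79 ± 0.08), Lss (-0.57 ± 0.08), Cyp51 (-0.31 ± 0.10) and Sqle (-0.20 ± 0.10) lower in CB and Dhcr7 (0.29 ± 0.13) higher, and between HIP and CB 3 were called, Fdft1 (-0.33 ± 0.08), Sqle (-0.32 ± 0.10) and Cyp51 (-0.26 ± 0.10), all lower in CB. Of all genes, 46.5%, 61.7% and 49.5% were called in these comparisons, which share libraries. The Fdft1 and Lss libraries of CX and CB did not overlap, and all other pairs named here did. The Sqle difference between CX and CB had an adjusted p of 0.0934 and was -0.31 without E17.5 WT replicate 3, and in Cul3+/- mice it was -0.13 and not called (adjusted p = 0.295).

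At P7, 6 of the 7 genes differed between each pair of regions, in the order CX above HIP above CB, and Cyp51 differed between none (adjusted p = 0.253, 0.665 and 0.406). All genes were called at 57.0% between CX and HIP, 82.9% between CX and CB and 78.2% between HIP and CB, so a count of 6 of 7 is near the background for the comparisons with CB. Cyp46a1 had the largest differences, at -0.78 ± 0.06 from CX to HIP, -1.73 ± 0.06 from CX to CB and -0.95 ± 0.06 from HIP to CB, followed in the comparisons with CB by Hmgcs1 at -1.18 ± 0.05 and -0.93 ± 0.05. The other called differences from CX to CB were -0.76 ± 0.06 for Fdft1, -0.62 ± 0.07 for Dhcr7, -0.59 ± 0.05 for Sqle and -0.50 ± 0.04 for Lss, and those from HIP to CB were between -0.42 and -0.30. No library of CB overlapped with CX or HIP in these called genes. From CX to HIP, Fdft1 was at -0.39 ± 0.06 without overlap, and Hmgcs1 (-0.25 ± 0.05), Lss (-0.20 ± 0.04), Sqle (-0.20 ± 0.05) and Dhcr7 (-0.20 ± 0.07) with overlap. In Cul3+/- mice these differences were -0.48 for Hmgcs1, -0.32 for Lss and -0.32 for Sqle. The Dhcr7 value was -0.09 without P7 WT replicate 4, whose CX library stood at 56.6 CPM (adjusted p = 0.0726).

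In adults, Cyp46a1 was called lower in HIP than in CX (-0.93 ± 0.06), in CB than in CX (-2.75 ± 0.07) and in CB than in HIP (-1.83 ± 0.07). Fdft1 was lower in the same 3 comparisons (-0.37 ± 0.07, -1.14 ± 0.07 and -0.78 ± 0.07), as was Hmgcs1 (-0.18 ± 0.08, -0.91 ± 0.08 and -0.72 ± 0.08) and Sqle (-0.17 ± 0.07, -0.48 ± 0.07 and -0.31 ± 0.07). Cyp51 was lower in CB than in CX (-0.18 ± 0.06) and HIP (-0.15 ± 0.06), with overlap, and neither was called in Cul3+/- mice (-0.04 in both, adjusted p = 0.627 and 0.636). Lss and Dhcr7 were called in no adult comparison, with differences between -0.19 and 0.07. In all, 4, 5 and 5 of the 7 genes were called, against 51.5%, 75.4% and 75.1% of all genes. The 4 between CX and HIP fell to 2 in several alternatives, in which Hmgcs1 and Sqle were no longer called.

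The comparison the study was made for is that of Cul3+/- with WT mice, and none of the 7 genes was called in any of the 9 datasets at an adjusted p of 0.1. In these fits, which left out sex and factors of unwanted variation, the only gene called among all genes was Cul3. The share called was thus 0.00603% in E17.5 CX, 0.00586% in E17.5 HIP, 0.00568% in E17.5 CB, 0.00566% in P7 CX, 0.00563% in P7 HIP, 0.00570% in P7 CB, 0.00569% in adult CX, 0.00584% in adult HIP and 0.00584% in adult CB. The paper's model held both terms, and the paper reports many further differentially expressed genes. These shares therefore do not show that other genes were unchanged. The paper also used upper-quartile normalization, another filter on low expression and the adult mice left out here. The part of these choices and of the omitted terms in the difference from the paper was not tested. An alternative with 3 of the factors was read here for the 7 genes only. DESeq2 and the other alternatives also called 0 of the 7 in every dataset. At an unadjusted p of 0.05, 2 of the 7 genes passed in P7 CX, 1 in P7 HIP, 2 in adult HIP and 3 in adult CB, and 0 in the other 5 datasets. Over all genes 3.22% passed that threshold in P7 CX, 5.05% in P7 HIP, 6.25% in adult HIP and 14.4% in adult CB. In the other 5 datasets 1.67% (E17.5 CX) to 4.89% (P7 CB) of all genes passed.

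The values nearest to a difference were in adult CB. Cyp51 lay there at 69.6, 72.9, 75.3, 76.6 and 89.5 CPM in WT and at 83.7, 86.7, 90.7, 107 and 108 CPM in Cul3+/- mice, so that the ranges overlapped by 1 WT library. The log2 fold change was 0.29 ± 0.09 (edgeR quasi-likelihood test, adjusted p = 0.303). Hmgcs1, named here after its values were seen, lay at 224, 225, 237, 260 and 288 CPM in WT and at 267, 285, 295, 314 and 334 in Cul3+/- mice (0.25 ± 0.08, adjusted p = 0.306). Scores of some other cell markers also differed between the genotypes in these libraries. That of 8 microglia markers ran from 3.53 to 3.74 in WT and from 3.79 to 4.03 in Cul3+/- mice, without overlap, and that of 10 oligodendrocyte markers from 6.95 to 7.95 (median 7.80) and from 7.83 to 8.12 (median 8.09). The score of 8 choroid plexus markers ran from 0.22 to 5.58 in WT (median 0.95) and from 0.58 to 4.92 in Cul3+/- mice (median 3.39). That of 10 neuron markers had medians of 8.51 and 8.54. The part of these cells in the values of the 7 genes was not tested. The member with the smallest p in each other dataset was Dhcr7 in E17.5 CX (-0.10 ± 0.12) and E17.5 HIP (-0.36 ± 0.21), Cyp46a1 in E17.5 CB (-0.17 ± 0.12), Lss in P7 CX (0.13 ± 0.05, adjusted p = 0.900), Cyp46a1 in P7 HIP (-0.16 ± 0.06, adjusted p = 0.833), Lss in P7 CB (0.06 ± 0.05), and Cyp51 in adult CX (0.16 ± 0.08) and adult HIP (0.17 ± 0.07, adjusted p = 0.796). The WT and Cul3+/- ranges overlapped for each of the 7 genes in each of the 9 datasets.

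The small differences leaned one way in some datasets. All 7 genes had positive values in adult CX (0.02 to 0.16) and adult HIP (0.08 to 0.17), and the medians of the 7 were 0.09, 0.13 and 0.18 in adult CX, HIP and CB, beside all-gene medians of 0.00, -0.00 and 0.00. In adult CB 4 of the 7 were positive and 3 negative, down to -0.17 for Dhcr7. At P7 the medians were 0.13 in CX, -0.01 in HIP and -0.04 in CB, and in embryos -0.05, -0.06 and -0.00, where 6 of the 7 were negative in CX and in HIP, all but Cyp46a1. The regions come from the same mice, and the genes varied together between mice, so these signs are not independent of each other. Of the 63 differences, 60 had an interval of ± 2 SE that stayed within ± 0.5 on the log2 scale, and the widest bounds were -0.78 for Dhcr7 in E17.5 HIP and 0.47 for Cyp51 in adult CB.

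**Figure D4:**
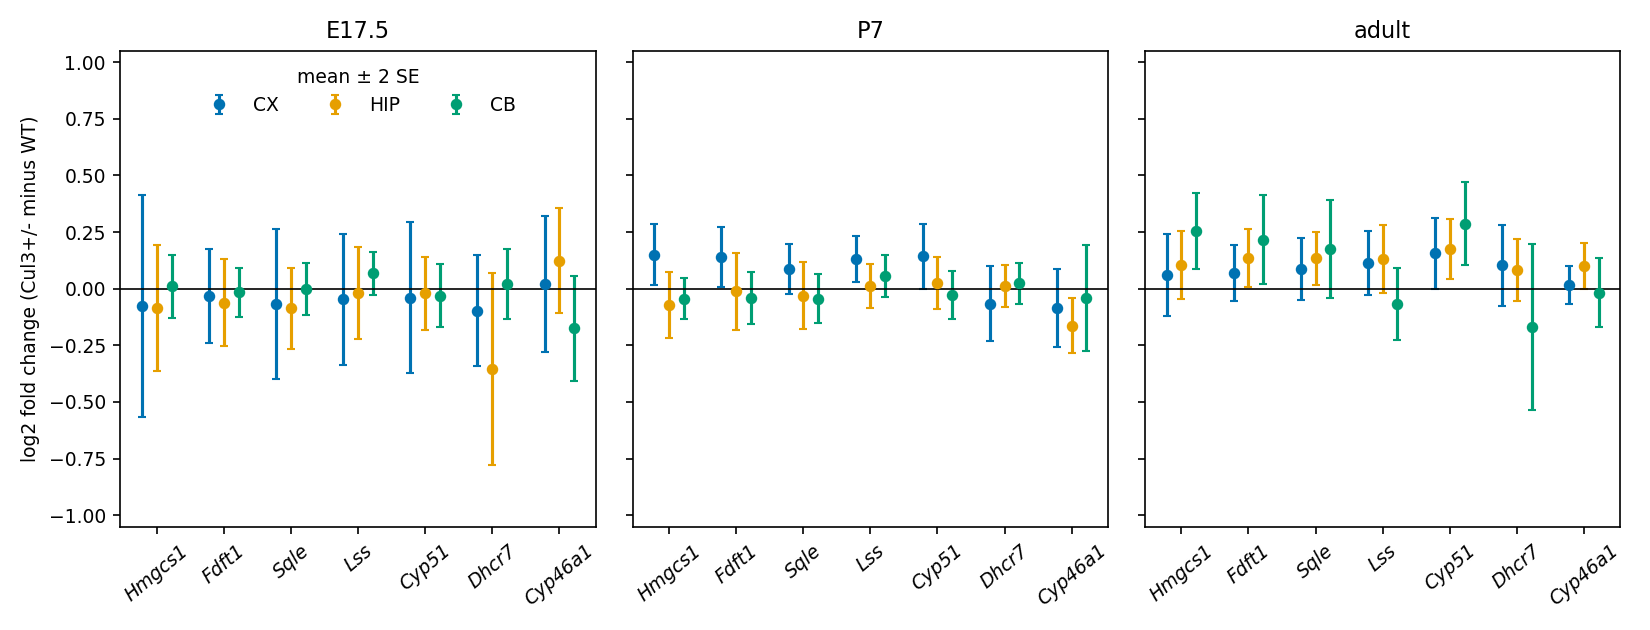
Log2 fold changes of Cul3+/- against WT mice (vertical axis) for the 7 genes (horizontal axis) at E17.5, P7 and in adults, with bars of ± 2 SE and colours for CX, HIP and CB. No value passed the adjusted threshold, and the bars that clear 0 in adult CB are those of Hmgcs1, Fdft1 and Cyp51.

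Whether the genotype difference itself changed with period or region was tested by interaction terms. None of the 7 genes was called for genotype by period in CX, HIP or CB, nor for genotype by region at E17.5, P7 or in adults, against 0%, 0%, 0%, 0%, 0% and 0.00525% of all genes. At an unadjusted p of 0.05, 0, 1 and 3 of the 7 passed for period and 0, 1 and 1 for region, against 2.10%, 4.09%, 13.2%, 2.495%, 4.57% and 15.8% of all genes, and edgeR's likelihood ratio test, with DESeq2 for the terms with period, likewise called 0 of the 7. The lowest adjusted p among the 7 was 0.307, for Cyp51 by period in CB.

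The synthesis genes also varied together among mice of a group. The deviation of each library's log2 CPM from the mean of its group was taken over all libraries, which include 3 regions of each mouse. Among Hmgcs1, Fdft1, Sqle, Lss and Cyp51 the 10 pairs had Pearson's r of 0.59 to 0.93 with a median of 0.82, whereas Dhcr7 had r of 0.28 to 0.60 with these 5 genes and Cyp46a1 had r of 0.15 to 0.41 with the 6 synthesis genes. The median of the 10 pairs was 0.90 in the 36 embryonic libraries, 0.85 in the 36 P7 libraries and 0.78 in the 30 adult libraries. At P7, however, the 4 pairs with Lss were at 0.21 to 0.49 and the other pairs at 0.83 to 0.89. Cyp46a1 and the synthesis genes had a median r of 0.55 in embryos, -0.20 at P7 and 0.05 in adults. Without the S3 embryos the embryonic median was 0.33, and that of Dhcr7 with the 5 genes went from 0.45 to 0.09. Over all libraries but these, Cyp46a1 had r of 0.03 to 0.27 with the synthesis genes. Libraries share depth and composition, so these values are a description.

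Part of the embryonic spread followed the names of the mice, whose prefix (S2, S3 or S4) the labels do not explain. Each prefix holds 2 WT and 2 Cul3+/- embryos. In CX the 4 embryos named S3 had 423 to 551 CPM of Hmgcs1, against 748 to 889 for S2 and 883 to 1036 for S4, and their ranges lay below both other prefixes for Sqle, Fdft1, Lss, Cyp51 and Cyp46a1 too. For Dhcr7 the S3 embryos lay at 16.9 to 21.5 CPM, overlapping S2 at 21.3 to 23.1. In HIP, Hmgcs1 was at 480 to 621 CPM in S3 against 693 to 763 and 744 to 893, and in CB it was at 582 to 785 against 611 to 683 and 652 to 751, so that CB showed no such split. The score of the 10 neuron markers in CX was also lower in S3, at 6.80 to 7.22 against 7.43 to 7.55 and 7.56 to 7.70, as in HIP with some overlap, at 5.90 to 6.75 against 6.64 to 7.14 and 6.94 to 7.45, but not in CB, at 7.41 to 7.60 against 7.46 to 7.62 and 7.42 to 7.68. The part of the neuron markers in the split was not tested.

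**Figure D5:**
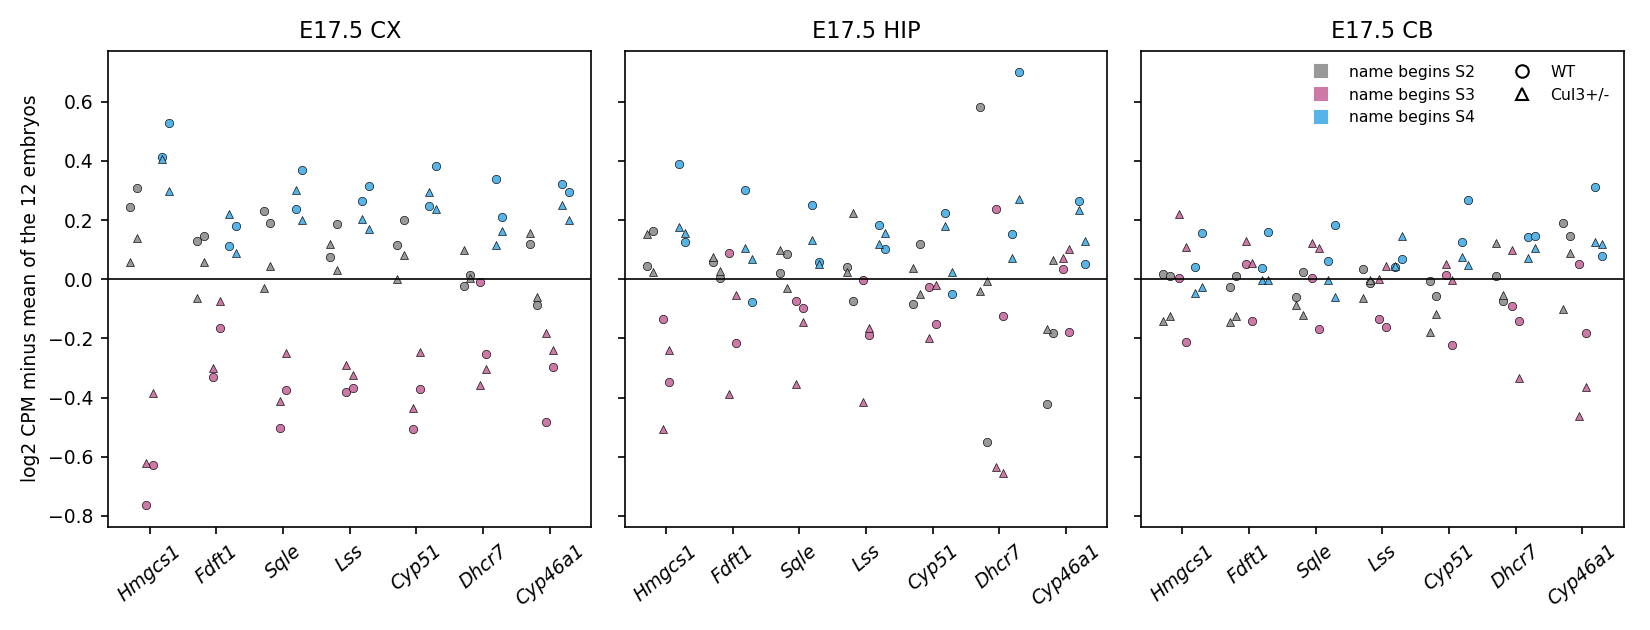
Log2 CPM of the 7 genes in each of 12 embryos minus their mean (vertical axis), in E17.5 CX, HIP and CB, with colours for the prefix of the mouse name and circles for WT and triangles for Cul3+/- embryos. In CX the embryos named S3 lie below 0 for all 7 genes, with both genotypes at like levels, and in CB they do not.

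Without the S3 embryos, a choice made after seeing the data, the CX change from E17.5 to P7 was -0.01 for Sqle, which was still not called, and -0.59 for Cyp51. In HIP, Fdft1 became called (-0.17, adjusted p = 0.0870). Between regions at E17.5, 5 of the 7 genes in place of 3 were then called from CX to HIP, where Lss was at -0.58 and Cyp46a1 at -0.50. From CX to CB the differences of Cyp51 and Sqle were -0.47 and -0.39, and Dhcr7 was no longer called (0.26, adjusted p = 0.274). No genotype call changed without these embryos, nor with the prefix as a block.

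Across the 18 group means, the genes most like the mean of the 6 synthesis genes by Pearson's r of log2 CPM were Fdps, Pfkfb1, Cxadr, Fasn, Rala, Myc, Fbxw9, Eif4e2, Tbcb and Ykt6, with r from 0.99 down to 0.98, where the middle 90% of 20859 genes lay between -0.79 and 0.80. Fdps, which codes for farnesyl diphosphate synthase and stands directly before Fdft1 in the pathway, was the only one of the 10 in the pathway lists. Among the members, each against the mean of the other 5, Sqle had r of 0.98, Hmgcs1 0.93, Fdft1 0.92, Lss 0.90, Cyp51 0.88 and Dhcr7 0.71. Most like Cyp46a1 were Htatip2 (0.99), Dact3, Chn1os1, Zfp365 and Cep19 (0.98 each), of which Chn1os1 is an antisense transcript with at most 1.02 CPM in any group mean. With 18 groups of 3 periods and 3 regions, many genes reach a high r, and the ranks are a description.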

How the data were processed

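Total RNA was depleted of ribosomal RNA and sequenced from 3 brain regions of 36 mice. Per the labels and methods, the authors trimmed reads with Cutadapt 1.14, aligned them with STAR 2.5.3a to GRCm38.p5 and deposited expected counts per gene from RSEM 1.3 in 1 table of 108 libraries. Of the values, 5.76% were not whole, and they were rounded before fitting. The strand setting of the counting was not given in the sources used here. RSEM divides reads between overlapping or similar genes, so the counts are estimates. Gene symbols were read from the annotation for 53274 of 53465 identifiers. No 2 library columns were identical.

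The 6 libraries of 2 adult mice were left out because the labels and the study's quality table give them opposite genotypes. The members and gene lists were chosen with earlier results of these data known. Levels are TMM CPM over the 102 libraries. Each test was fitted to all genes kept by filterByExpr (minimum count 10, total 15) with edgeR 4.0.16 in R 4.3.3, by the quasi-likelihood test with Benjamini-Hochberg adjustment over all genes tested, and a gene was called at an adjusted p of 0.1. WT and Cul3+/- mice were compared in each of 9 datasets without covariates. The authors' model also held sex and factors of unwanted variation. Sex was left out, since the labels do not give it. The factors were left out of the main fits, since their number in each dataset was not given in the sources used here. An alternative used 3 of them. Periods were compared in WT mice with 3 periods in 1 fit per region. Regions were compared in WT mice with the mouse as a block. The SE of a log2 fold change was taken as the fold change over the square root of its F statistic, and error bars of levels are SD. Each library is 1 region of 1 mouse, so the tests measure the spread between mice. The main fits treated embryos that share a name prefix as separate mice, although levels in E17.5 CX followed the prefix. Names of P7 mice also carry a prefix, which was not examined. Log2 CPM used a prior count of 2. Estimated counts of single libraries carry counting error as well, which for the 7 genes rests on at least 116 counts. The fits were tested on simulated data.

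Genes named in the text were Cul3, the 7 members between periods, the members called between regions, the member with the smallest p per genotype comparison, Srebf2, Insig1 and Apoe, the list gene with the largest called change in each direction between periods, and the genes most like the members. Some genes that this rule takes in are not reported here, and their points were left out of the plot of the lists, while the counts and medians of the lists include them. To see whether replicate numbers pair mice, each library's deviations from its group means were correlated across genes. In E17.5 CX all 6 same-numbered pairs of WT and Cul3+/- were above 0.1 (0.113 to 0.759), and in the other 8 datasets not all were, so the number was used as a block only as an alternative. The alternatives tried were DESeq2 1.42.0, the likelihood ratio test, no filter on low counts, upper-quartile normalization, both genotypes of the mice left out, RUVs with 3 factors, the other genotype for periods and regions, only the periods compared, and each replicate left out. Leaving out embryos named S3 and using the name prefix as a block were added after seeing the data.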

Additional observations from a re-analysis of the deposited data

Results flagged for a closer look

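In 126 groups of libraries, searched gene by gene, 6 libraries stood far from the others of their group, a distance that chance gives in about 1 of 20 groups. Dhcr7 was at 56.6 CPM in the P7 CX library of WT replicate 4 (others 38.3 to 42.4), at 23 CPM in adult HIP of WT replicate 3 (others 17.8 to 18.7) and at 28.3 CPM in adult CB of WT replicate 3 (others 12.6 to 16.4). Fdft1 was low at 105 CPM in E17.5 HIP of Cul3+/- replicate 3 (others 132 to 148) and at 82.7 CPM in P7 CB of Cul3+/- replicate 6 (others 90.5 to 94.6). Lss was high at 87.8 CPM in P7 HIP of Cul3+/- replicate 2 (others 73.5 to 78.4).

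Hmgcs1 moved in opposite directions between regions from E17.5 to P7, with log2 fold changes of 0.636 in CX and 0.552 in HIP against -0.380 in CB. The libraries of both periods did not overlap in any of the 3 regions, and the difference between the regions was not tested.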

How the results depend on the processing

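No genotype call among the 7 genes appeared under any alternative in any dataset, and 7 of 7 were called from P7 to adult in each region under all 26 alternatives. Over all results 682 counts and similar values that answer a comparison stayed within 1.5 times of their value and 12 did not. With Cul3+/- in place of WT mice, other animals throughout, the genes at least 1 lower on the log2 scale from P7 to adult in CB numbered 1 in place of 3. Without the embryos named S3, 5 in place of 3 genes differed between E17.5 CX and HIP. Between E17.5 CX and CB, 3 in place of 5 were called with no replicate block, and 3 to 5 when 1 mouse was left out, with 3 without replicate 1. Between adult CX and HIP, 2 in place of 4 were called with no filter and with no replicate block, and 2 to 4 when 1 mouse was left out. Of the 10 genes most like the synthesis genes, 4 were kept with Spearman's rho, and of the 5 most like Cyp46a1, 1 was kept with rho and 3 with the 9 WT groups. With the replicate number as a block no genotype call changed. Mice of different periods share only a number and are not paired, and with that number as a block the calls from E17.5 to P7 went from 6 to 7 in CX and from 5 to 4 in HIP. The fall of Lss in HIP from E17.5 to P7 lost its call in 11 of 26 alternatives. The cause of these shifts was not tested. No library held fewer than 116 counts of any of the 7 genes, and each group had 5 or 6 mice.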
